A study of Nematostella vectensis with 84 samples.

Results

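Cluster 18 of Neural 1 is a fine cluster of single cells from adult starlet sea anemones, Nematostella vectensis. Its members are the cells that the authors' deposited annotation places in the fine cluster named 18 - Neural 1. They number 269 of 12352 cells, or 2.18% of all cells, and 7.63% of the 3527 cells of the broad cluster Neural 1. All 269 lie in Neural 1, which holds 13 of the 45 fine clusters, and 5 of those 13 are larger than cluster 18. Some Neural 1 fine clusters carry a peptide or class name in the annotation, such as RPa or Class8-like, and cluster 18 carries none. The cell table lists categories and no molecule counts, so the name Neural 1 was not checked against marker genes and no gene is described here.

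All animals were adults of 6 to 8 weeks, heterozygous for 1 of 3 stable transgenes, Elav>KikGR, FoxL2>KikGR or SoxC>KikGR. The reporter KikGR fluoresces green when newly made and is switched to red by illumination, and cells were collected 2, 4 or 7 days after photoconversion. Animals had received 1% DMSO or had no treatment stated, and the latter are called untreated. The body wall with mesenteries was dissociated, and FACS placed cells in the wells of plates. Their RNA was sequenced cell by cell with MARS-seq, in which every well of a plate has its own barcode. A dissociation is the replicate, with 8 for Elav, 10 for FoxL2 and 9 for SoxC. Elav had 4 DMSO and 4 untreated dissociations, FoxL2 had 5 and 5, and all 9 of SoxC had DMSO. Elav and SoxC cells all came from the gate named KikGR+, while FoxL2 cells came from the gates KikGR+, Epithelial-depleted and New. The tagged cells are those sorted as positive for the reporter, so a share describes sorted cells and not the whole animal. Whether the driver was active in a cell when it was collected was not measured here. The labels do not say how many animals entered a dissociation. A dissociation held 245 to 995 cells in the table, of which 21 to 475 were Neural 1, so the precision of a share rests on few members per dissociation.

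Sea anemones have a diffuse nerve net with no brain, built of many molecularly distinct neuron types in both body layers. Elav proteins bind RNA and are widely used neuronal markers, FoxL2 is a forkhead transcription factor, and SoxC is a transcription factor of the HMG-box family linked to neural progenitors in this species. A photoconverted reporter dates a cell's reporter protein. Red protein is carried over from before illumination, green protein is made afterwards if the conversion was complete, and a cell that holds both can read orange. How complete the conversion was is not analysed here.

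The well barcodes bear on the independence of the dissociations and are described before the shares. The well barcode has 7 bases, and libraries were pooled for demultiplexing, so that 1 barcode recurs in many libraries of a pool. Well lists were used for 76 of the 84 libraries, which hold 251 of the 269 members. Among all pairs of cells with the same well barcode in the same pool, 17.3% of 98519 pairs lay in 1 fine cluster, against 4.52% computed from the make-up of the libraries. Among pairs with the same barcode in different pools, 3.05% of 230362 lay in 1 fine cluster, and the value from library make-up was also 3.05%. Cells of different drivers within a pool shared a fine cluster in 15.6% of pairs.

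Cluster 18 showed the same pattern. Each member was paired with every other cell that carried its well barcode, so a cell counts once per such member. Of the partners in the same pool 8.92%, 404 of 4527, were members, against 2.19% in other pools. Members were 2.24% of all listed cells. Barcodes with many members weigh most in these values. Within 1 plate the value was 20.3%, or 36 of 177. The 251 listed members fell into 163 sets of pool and well barcode, and 138 of them lay in 50 sets with 2 or more members. Sharing took in 47.4% of listed Elav members, 57.4% of FoxL2 members and 65.2% of SoxC members. With 190 well barcodes, part of this sharing would arise by chance. That part was not computed, so these counts and percentages are not a measure of excess. The barcodes of the sets with most members, all in the pool named SB42, are shown because they tie members of separate dissociations together, with the whole well barcode in capitals.
barcode with 13 members of 25 cells: CATACAG
barcode with 8 members of 22 cells: GGACTTC
barcode with 5 members of 18 cells: ACTCAGG
The 13 members with the first barcode, 5 of them Elav members and 8 FoxL2 members, came from 13 libraries of 8 dissociations. Those with the second came from 6 dissociations, and those with the third from 4. All 45 fine clusters had a higher value within a pool than between pools, and cluster 18 ranked 25 of 45 by its value within a pool. The part of this sharing in the results that follow was not tested beyond counting each barcode once or leaving the sharing cells out. The p-values treat dissociations as independent, although members of separate dissociations shared barcodes.

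**Figure D1:**
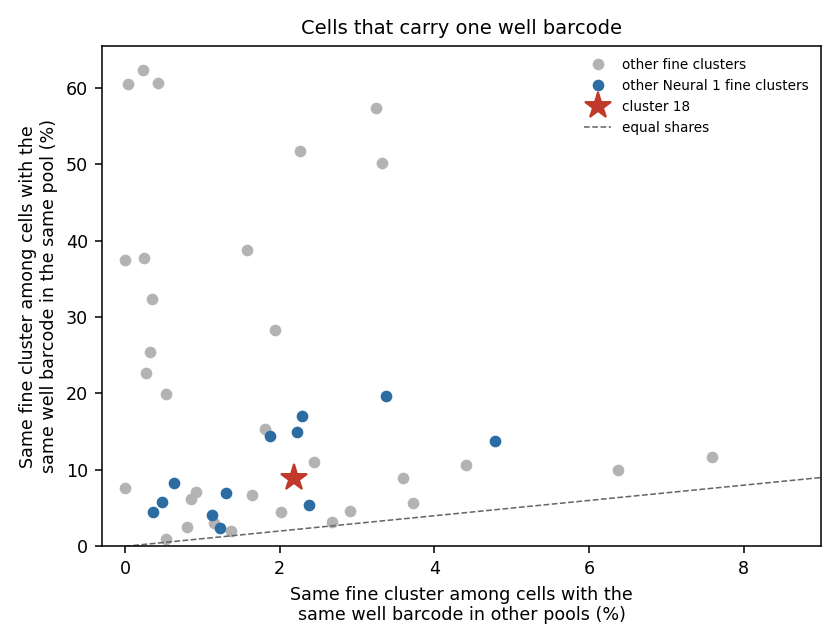
Percentage of partners in the same fine cluster, in the same demultiplexing pool (vertical axis) against other pools (horizontal axis), with 1 point per fine cluster. A partner is any other cell with the well barcode of a cell of the cluster, counted once per such cell. Cluster 18, the star at 2.19% and 8.92%, lies above the dashed line of equal shares, as do all 45 fine clusters.

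The first comparison asks whether the drivers tag cluster 18 to different degrees. Cluster 18 was a larger share of Elav-tagged cells than of FoxL2- or SoxC-tagged cells. The mean share of all cells was 3.63% ± 1.17 (SD, n = 8) for Elav. It was 1.93% ± 0.914 (SD, n = 10) for FoxL2, and for SoxC 1.41% ± 0.797 (SD, n = 9). In the 8 Elav dissociations the share was 1.69% at the lowest, 3.88% at the median and 4.86% at the highest. The lowest was dissociation 23 with 5 of 295 cells and the highest was dissociation 26 with 16 of 329. FoxL2 ran from 0.940% in dissociation 11 (6 of 638 cells) through a median of 1.52% to 3.88% in dissociation 19 (12 of 309 cells). SoxC ran from 0.336% in dissociation 6 (1 of 298 cells) through a median of 1.22% to 2.90% in dissociation 8 (15 of 517 cells). The groups overlapped, with 6 of 8 Elav dissociations above the highest SoxC value and 4 of 8 above the highest FoxL2 value.

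The difference between Elav and SoxC was 2.22 percentage points (exact two-sided permutation test, p = 0.000782, adjusted p = 0.00330). Between Elav and FoxL2 it was 1.70 points (exact permutation, p = 0.00487, adjusted p = 0.0143). The 0.521 points between FoxL2 and SoxC stayed short of the threshold (p = 0.207, adjusted p = 0.303, exact permutation). Of the 45 fine clusters, 62.2% passed between Elav and SoxC, 22.2% between Elav and FoxL2 and 55.6% between FoxL2 and SoxC. Cluster 18 is thus 1 of 28, and 1 of 10, clusters called in the first comparisons, and it was not among the 25 called in the third. The adjustment ran over 45 clusters and 3 pairs.

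The contrasts between drivers changed with the setting, in size, in call or in both. In the KikGR+ gate alone Elav minus FoxL2 was 2.14 points and passed (exact permutation, adjusted p = 0.00555). Among DMSO dissociations alone the Elav minus SoxC difference was 1.60 points with adjusted p = 0.0536 by exact permutation, and Elav minus FoxL2 was 1.50 with adjusted p = 0.121. Within pools, Elav minus FoxL2 was 2.11 points in SB34, 1.82 in SB40 and, among the untreated dissociations that make up SB42, 1.89, none of them past the threshold. Elav minus SoxC was 0.965 points in SB34 and 1.83 in SB40, also not past it, while SB41 held 1 Elav and 1 FoxL2 dissociation. SB34 held 3 Elav and 5 FoxL2 dissociations and SB40 held 2 and 5, which limits how small an exact p can be. In SB34 the unadjusted p of Elav minus FoxL2, 0.0179 (exact permutation), was the smallest possible with those numbers. The lack of a call within pools therefore decides little. FoxL2 minus SoxC turned to -1.15 points in SB34 and was 0.0114 in SB40. In the KikGR+ gate, the only one of SoxC, it was 0.0737 points (exact permutation, p = 0.834, adjusted p = 0.886), and with DMSO dissociations alone it was 0.0974. It was 0.304 without FoxL2 dissociation 19, 0.788 without Gastrodermis and Epidermis in the total, 0.949 in odd-well libraries and 0.130 in even-well libraries. With the cells that share a well barcode and fine cluster left out, Elav minus SoxC was 4.12 points (adjusted p = 0.000926) and Elav minus FoxL2 was 2.20 (adjusted p = 0.101). FoxL2 minus SoxC then was 1.91 points and passed (exact permutation, adjusted p = 0.0106), as it did at 1.05 with each barcode counted once (adjusted p = 0.0440).

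**Figure D2:**
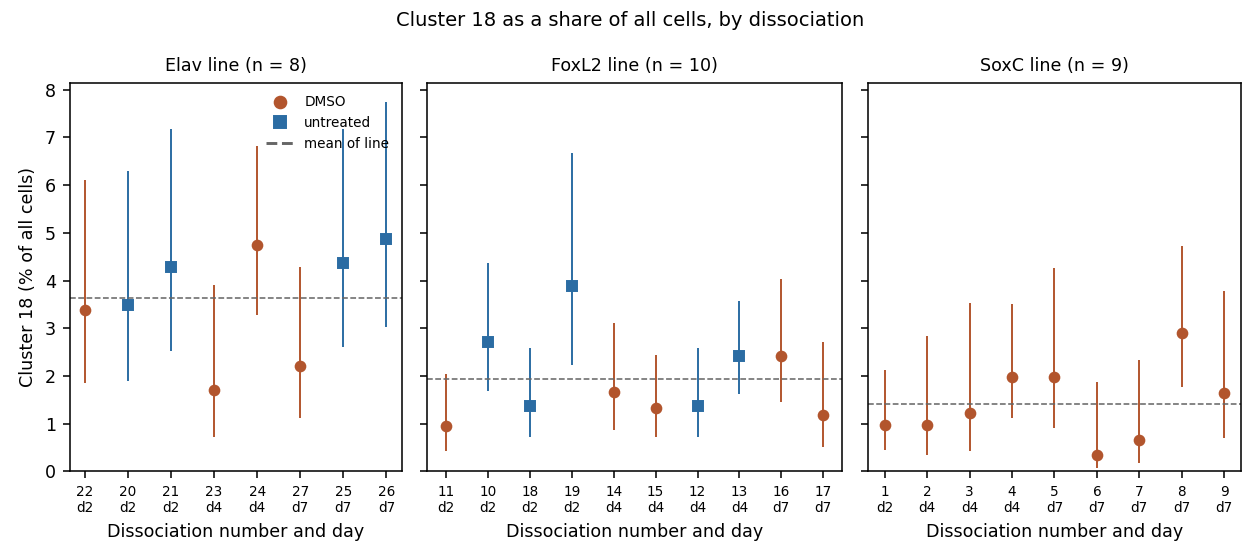
Cluster 18 as a percentage of all cells in each dissociation (points), with 95% Wilson intervals for counting error (bars) and the mean of each line (dashed). Elav dissociations lie between 1.69% and 4.86%, FoxL2 between 0.940% and 3.88% and SoxC between 0.336% and 2.90%.

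Whole Neural 1 also differed in share between the drivers, from 28.9% to 59.9% of cells in Elav dissociations, 12.7% to 47.7% in FoxL2 and 7.05% to 15.1% in SoxC. These ranges mix media for Elav and FoxL2, while SoxC had DMSO alone. With DMSO, Neural 1 was 28.9% to 40.2% in Elav and 12.7% to 24.1% in FoxL2. In untreated dissociations it was 48.4% to 59.9% and 32.2% to 47.7%. Within Neural 1 the order of the drivers was another one. Cluster 18 made up 12.1% ± 6.07 (SD, n = 9) of the Neural 1 cells of SoxC. The mean for Elav was 8.34% ± 2.54 (SD, n = 8), and FoxL2 had the lowest, 6.73% ± 2.58 (SD, n = 10). In SoxC the share ran from 4.76% (1 of 21 cells, dissociation 6) through a median of 10.9% to 22.7% (15 of 66 cells, dissociation 8). In Elav it ran from 5.38% (dissociation 23) through 7.87% to 14.1% (dissociation 24). In FoxL2 it ran from 3.04% (dissociation 12) through 6.23% to 11.9% (dissociation 16). The 3 ranges overlap. For reference, counting error alone corresponds to an SD of 5.61 in SoxC, 2.40 in Elav and 2.00 in FoxL2.

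No pair of drivers passed for the share within Neural 1. The difference was -5.41 points for FoxL2 minus SoxC (exact permutation, p = 0.0134, adjusted p = 0.244). It was -3.80 points for Elav minus SoxC (exact permutation, adjusted p = 0.396) and 1.61 for Elav minus FoxL2 (adjusted p = 0.480). The background was 0 of 13 Neural 1 fine clusters, or 0%, in each pair. At an unadjusted p under 0.05 it was 38.5% of the 13 for FoxL2 minus SoxC, cluster 18 among them, and 7.69% for each of the other pairs, cluster 18 in neither. These differences kept their sign but varied in size. Elav minus SoxC was -7.68 points with at least 50 Neural 1 cells, -6.15 in even-well libraries, -1.33 with each barcode counted once and -0.121 without the sharing cells. Without SoxC dissociation 8 it was -2.48. FoxL2 minus SoxC was -9.29 with at least 50 Neural 1 cells, -8.24 in even-well libraries, -3.19 with each barcode counted once and -2.08 without the sharing cells. Within pools SB34 and SB40, Elav minus SoxC was -8.60 and -1.50 and FoxL2 minus SoxC was -10.5 and -3.05. Elav minus FoxL2 was 0.779 without Elav dissociation 24, 1.06 in odd-well libraries and 0.844 with DMSO dissociations alone.

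Cluster 18 and 7 other Neural 1 fine clusters can be set side by side, the 5 larger and the 2 next smaller. Within Neural 1, cluster 4 averaged 20.4% in Elav, 15.8% in FoxL2 and 21.7% in SoxC. Cluster 5 averaged 15.3%, 17.3% and 14.9% in the same order. Cluster 10 (RPa) stood at 10.7%, 10.8% and 11.3%, and cluster 11 (Class8-like) at 10.1%, 7.58% and 10.1%. Cluster 13 stood at 10.2%, 9.93% and 8.43%, cluster 20 (RPa) at 6.52%, 6.95% and 4.92%, and cluster 24 at 4.86%, 6.36% and 3.80%. By these means cluster 18 was the third of the 13 fine clusters in SoxC. It was the sixth in Elav and the seventh in FoxL2. In the share of all cells, each of those 7 was higher in Elav than in SoxC, with adjusted p between 0.000694 and 0.00359 by exact permutation, as was cluster 18. Against FoxL2, clusters 4 and 13 passed as cluster 18 did (adjusted p = 0.0270 and 0.0281, exact permutation), and the other 5 did not. Between FoxL2 and SoxC, 9 of the 13 Neural 1 fine clusters were higher in FoxL2 and passed. Among them were clusters 5, 10, 13, 20 and 24 (adjusted p between 0.000694 and 0.0171, exact permutation). Clusters 4, 11 and 18 did not pass (adjusted p = 0.0657, 0.0656 and 0.303, exact permutation). Whether cluster 18 differs from any of those 7 in its contrast between drivers was not tested.

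**Figure D3:**
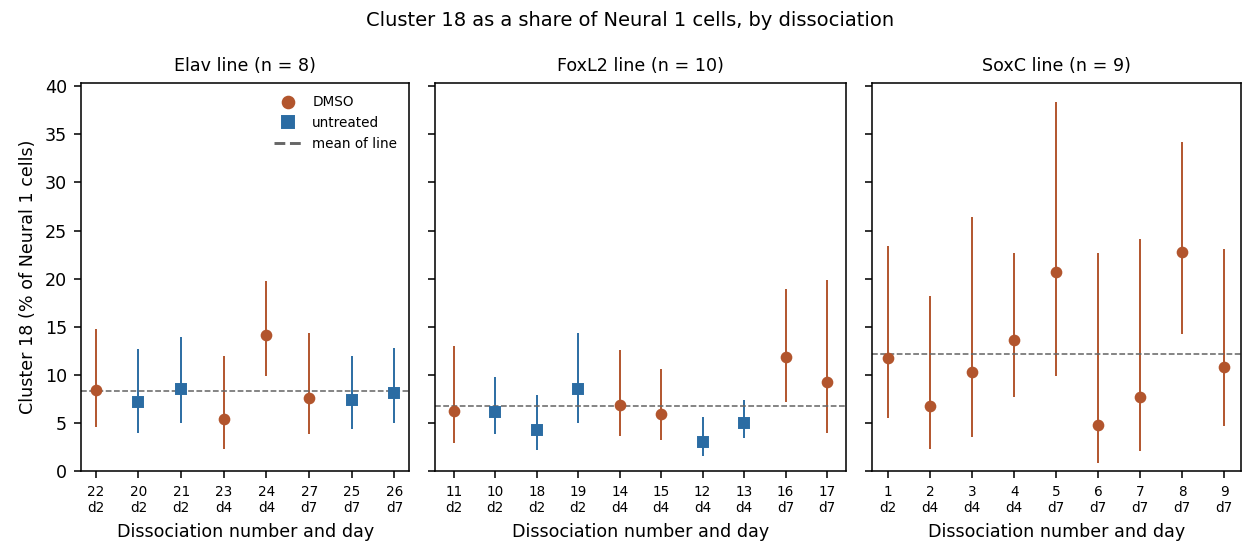
Cluster 18 as a percentage of Neural 1 cells in each dissociation (points), with 95% Wilson intervals for counting error (bars) and the mean of each line (dashed). SoxC values spread from 4.76% to 22.7% with wide intervals, and all but dissociation 24 of the Elav values lie between 5.38% and 8.50%.

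The second comparison asks whether cluster 18 became more or less frequent with time after photoconversion. Its share of all cells did not change detectably over days 2, 4 and 7. In Elav the mean was 3.71% ± 0.491 (SD, n = 3) after 2 days, then 3.22% ± 2.16 (SD, n = 2) after 4 days, and 3.81% ± 1.41 (SD, n = 3) after 7 days. In FoxL2 the means were 2.23% ± 1.34 (SD, n = 4), 1.69% ± 0.499 (SD, n = 4) and 1.80% ± 0.886 (SD, n = 2). In SoxC the single dissociation of day 2 stood at 0.977%. The mean of day 4 was 1.40% ± 0.522 (SD, n = 3). The 5 dissociations of day 7 ran from 0.336% to 2.90%. The common slope within drivers was 0.00224 percentage points per day (permutation test over 27 dissociations, p = 0.983, adjusted p = 0.983). Across fine clusters 0% of 45 passed, and 4.44% had an unadjusted p under 0.05.

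Within Neural 1 the slope was 0.406 points per day (permutation, p = 0.313, adjusted p = 0.932), where 0% of 13 fine clusters passed. At an unadjusted p under 0.05 there were 0. FoxL2 held 6.32% ± 1.76 (SD, n = 4) after 2 days, then 5.23% ± 1.64 (SD, n = 4) after 4 days, and 10.6% ± 1.84 (SD, n = 2) after 7 days. Both day 7 values, 11.9% and 9.26%, lay above all earlier FoxL2 values, of which the highest was 8.57%. Both came from DMSO dissociations, and the FoxL2 slope alone was 0.782 points per day (permutation, unadjusted p = 0.0740). The common slope within Neural 1 was 0.266 without SoxC dissociation 5, 0.230 without SoxC dissociation 8 and 0.255 without FoxL2 dissociation 16. Differences of slope between drivers did not pass either (permutation, adjusted p = 0.901 for each).

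The third comparison sets DMSO beside untreated on the days that had both. Cluster 18 was the smaller share of all cells with DMSO in the Elav and the FoxL2 line, short of the adjusted threshold. In Elav, the 2 DMSO dissociations held 3.38% and 2.20% and the 4 untreated ones held 3.48%, 4.28%, 4.36% and 4.86%. Over all days the Elav media overlapped, since the DMSO dissociations of day 4 held 1.69% and 4.75%. In FoxL2, the 3 DMSO dissociations held 0.940%, 1.65% and 1.33%, and the 5 untreated ones held 2.72%, 1.38%, 2.41%, 1.37% and 3.88%, with overlap. The difference within driver and day was -1.18 points (exact permutation over 216 arrangements, p = 0.0278, adjusted p = 0.0893). Of the 45 fine clusters 11.1% passed, and before adjustment 40% did. On the same days whole Neural 1 was 28.9% and 40.2% of Elav cells with DMSO and 48.4% to 59.9% untreated. For FoxL2 it was 15.0% to 24.1% with DMSO and 32.2% to 47.7% untreated. The Epithelial-depleted cells of FoxL2 were all untreated and its New cells all had DMSO. In the KikGR+ gate alone the difference was -0.779 points (exact permutation, p = 0.120, adjusted p = 0.285). Without the broad clusters Gastrodermis and Epidermis in the total it was -0.748 (exact permutation, adjusted p = 0.386). It was -0.758 in even-well libraries alone and -2.29 without the cells that share a barcode and fine cluster. The untreated dissociations also made up pool SB42 and the DMSO ones the other pools, so medium cannot be told apart from pool.

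As a share of Neural 1, cluster 18 differed by 0.837 points between DMSO and untreated (exact permutation, p = 0.282, adjusted p = 0.594). The background was 0% of 13, with 23.1% at an unadjusted p under 0.05. The untreated Elav dissociations lay within a narrow range, 7.19% to 8.50%. The DMSO dissociations of days 2 and 7 lay inside it, at 8.40% and 7.62%. The sign depended on how cells with shared barcodes were counted, at -1.22 points with each barcode counted once and -3.69 without the sharing cells. The difference was 1.49 in the KikGR+ gate alone, 1.94 with strata of driver alone, 3.00 in even-well libraries and -0.397 in odd-well libraries. Without FoxL2 dissociation 12 it was 0.408, and without dissociation 14 it was 0.540.

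Sorting gates could be compared within FoxL2 dissociations. In the 3 that were sorted by both gates, the Epithelial-depleted gate held more cluster 18 cells than the KikGR+ gate. The shares of all cells were 3.65% against 1.90% in dissociation 10, 1.61% against 0.637% in dissociation 12 and 2.52% against 1.85% in dissociation 13. The difference was 1.13 points ± 0.555 (SD, n = 3), and it was positive in 3 of 3. Within Neural 1 the shares were 8.20% against 4.41%, 3.54% against 1.43% and 5.26% against 3.95%, a difference of 2.40 points ± 1.26 (SD, n = 3). With 3 pairs the smallest p of an exact sign-flip test is 0.25, so no call was possible. The KikGR+ values rest on 6, 1 and 3 members. Leaving out cells that share a barcode and fine cluster moved the difference within Neural 1 to 0.668 points. For the New gate, in dissociations 11 and 15, the share of all cells was 0.654% against 1.20% and 1.71% against 1.00% in KikGR+, opposite in sign.

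The fourth comparison asks which reporter colour the members had. Of the 269 members, 195 have a colour class in the authors' table, of which 30 are green, 110 orange and 55 red. The 74 without a class are 60 of the Epithelial-depleted gate, 8 of the New gate and 6 of KikGR+. Percentages are of coloured members, in the 16 dissociations with at least 5 of them, 8 of Elav, 3 of FoxL2 and 5 of SoxC.

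Green members became more frequent with days after photoconversion. In Elav, day 2 had 0 of 10, 1 of 13 and 1 of 10 green members in dissociations 20, 21 and 22. Day 4 had 1 of 5 and 5 of 27 in dissociations 23 and 24. Day 7 had 5 of 14, 5 of 16 and 3 of 8 in dissociations 25, 26 and 27. The Elav days did not overlap, with 0% to 10.0% on day 2, 18.5% to 20.0% on day 4 and 31.2% to 37.5% on day 7. In the SoxC dissociations with at least 5 coloured members, 0 of 6 were green on day 2 and 0 of 11 on day 4, and 1 of 6, 3 of 14 and 1 of 5 on day 7. The 4 SoxC dissociations below that minimum had 1 of 3 and 1 of 1 green on day 4 and 1 of 1 and 1 of 2 on day 7. FoxL2 had none among 43 coloured members over 8 dissociations, a count that allows a share of up to 6.98%. Green was also rare among the other Neural 1 cells of FoxL2, at 19 of 627, or 3.03%.

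The common slope of the green share was 4.77 percentage points per day (permutation test over 16 dissociations, p = 0.000140, adjusted p = 0.00504). Of the 36 fine clusters with enough coloured cells, 5.56% passed. In Elav alone the slope was 5.75 points per day (permutation, unadjusted p = 0.00181), and in SoxC it was 4.38 (permutation over 5 dissociations, unadjusted p = 0.0996). The days of those 5 SoxC dissociations allow too few distinct arrangements for a p clearly under 0.05. The call was lost with other minimums of coloured members, at 3.31 points per day with at least 3 (adjusted p = 0.0582, permutation) and 5.73 with at least 10 (adjusted p = 0.0755, permutation). It was also lost among DMSO dissociations alone, at 4.10 points per day (permutation, adjusted p = 0.156). Counting each well barcode once gave 4.75 points per day (permutation, adjusted p = 0.00504). Leaving out the cells that share a barcode and fine cluster, with at least 3 coloured members, gave 4.12 points per day (permutation over 14 dissociations, adjusted p = 0.127).

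The other Neural 1 cells of the same dissociations moved likewise, at 4.29 points per day (permutation, unadjusted p = 0.00321). The slope of the difference between members and those cells was 0.481 (permutation, p = 0.655). Over the 16 dissociations, green made up 13.7% of members and 16.8% of the other Neural 1 cells, a paired difference of -3.18 points (exact sign-flip permutation, p = 0.110, adjusted p = 0.844), with members higher in 4 of 16. For this paired comparison 0% of 9 Neural 1 fine clusters passed, and 0 did so before adjustment. Dissociation 24 departed most upwards, with 18.5% green members against 5.49% of its other Neural 1 cells.

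**Figure D4:**
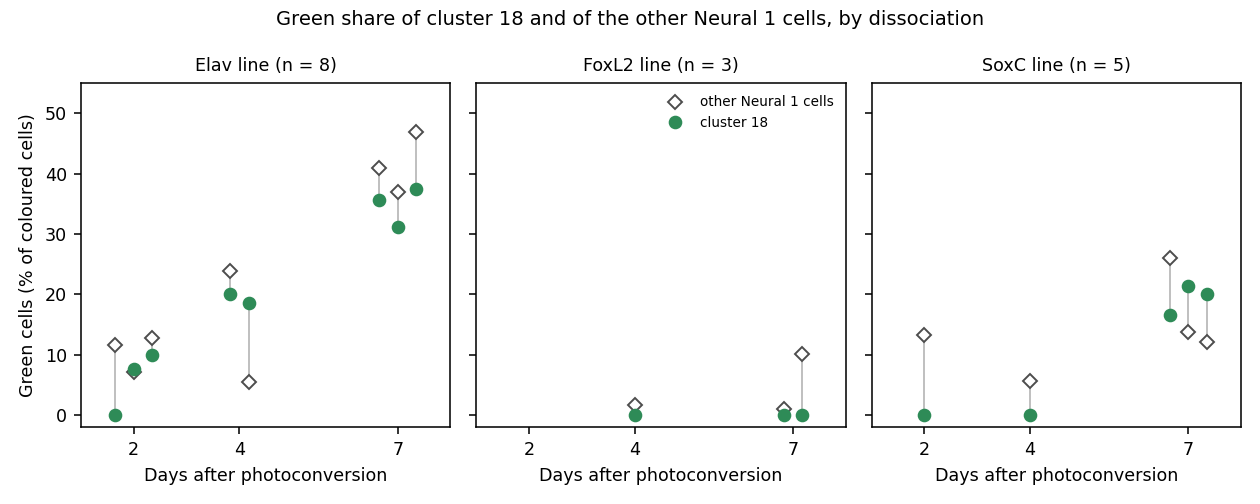
Green cells as a percentage of coloured cells (vertical axis) against days after photoconversion, for cluster 18 (filled circles) and the other Neural 1 cells (open diamonds) of each dissociation, joined by a line and spread sideways within a day. Elav members run from 0% to 10.0% on day 2 to 31.2% to 37.5% on day 7, and the 3 FoxL2 dissociations stand at 0%.

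Orange was the commonest class in Elav members and red in SoxC members. For orange the mean was 66.9% ± 20.3 (SD, n = 8) among Elav members, against 26.2% ± 24.5 (SD, n = 5) among those of SoxC. FoxL2 members stood at 72.4% ± 25.1 (SD, n = 3). For red the mean was 13.0% ± 13.3 (SD, n = 8) among Elav members, against 62.1% ± 27.4 (SD, n = 5) among those of SoxC. FoxL2 members stood at 27.6% ± 25.1 (SD, n = 3). In Elav the red share was 0% at the lowest, 12.7% at the median and 37.5% at the highest. In SoxC it was 100% in dissociation 1 (6 of 6 cells), 54.5% in 4, 33.3% in 5, 42.9% in 8 and 80.0% in 9. Only dissociation 26 of Elav, with 6 of 16 red members, reached into the SoxC range.

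The red share was lower in Elav than in SoxC, with a difference of -49.1 points (exact permutation, p = 0.00155, adjusted p = 0.0229). Here 35.3% of 17 fine clusters passed. The orange share was higher in Elav by 40.6 points (exact permutation, p = 0.0101, adjusted p = 0.0429), where 23.5% of 17 passed. Both contrasts were added after the colours had been seen, and neither takes account of day. Their adjustment ran over the 17 fine clusters of this pair of drivers and not over the other pairs. Among DMSO dissociations alone the red difference was -57.1 and the orange difference 47.3, neither past the threshold (exact permutation, adjusted p = 0.0794 for each). Without 1 dissociation at a time the red call held each time, while the orange call was lost without 8 of 13 dissociations, 1, 8 and 9 of SoxC and 20 to 24 of Elav. The other Neural 1 cells of the same dissociations had orange means of 62.0% in Elav, 61.6% in FoxL2 and 29.0% in SoxC. The paired orange difference between members and those cells was 3.61 points (exact sign-flip permutation, adjusted p = 0.672), where 33.3% of 9 fine clusters passed. Members were higher in 9 of 16.

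The green share was higher in Elav than in FoxL2 by 20.1 points (exact permutation, p = 0.0485, adjusted p = 0.108), short of the threshold, where 5% of 20 fine clusters passed. FoxL2 had no day 2 dissociation with enough coloured members. The other Neural 1 cells of the same dissociations had the same order of drivers in green. Their means were 23.2% ± 16.4 (SD, n = 8) for Elav, 4.27% ± 5.15 (SD, n = 3) for FoxL2 and 14.2% ± 7.39 (SD, n = 5) for SoxC. Elav and SoxC differed by 8.47 points in green (exact permutation, adjusted p = 0.633), where 0% of 17 passed and 5.88% had an unadjusted p under 0.05. FoxL2 minus SoxC was -11.6 points (exact permutation, adjusted p = 0.246), where 32% of 25 passed.

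The other Neural 1 cells had the same order of drivers in red, with 14.8% ± 14.8 (SD, n = 8) for Elav, then 34.2% ± 14.7 (SD, n = 3) for FoxL2, and for SoxC 56.8% ± 13.0 (SD, n = 5). The paired difference between members and those cells was -0.435 points in red (exact sign-flip permutation, adjusted p = 0.922), where 22.2% of 9 fine clusters passed, with members higher in 6 of 16. The red slope of members was -3.13 points per day (permutation, adjusted p = 0.473). With DMSO dissociations alone it was -7.39 (permutation, unadjusted p = 0.0285, adjusted p = 0.228), and with at least 10 coloured members it was 1.99. It was -0.843 without SoxC dissociation 1, -2.02 without FoxL2 dissociation 14 and -4.84 without Elav dissociation 26. In the test over all 16 dissociations 0% of 36 fine clusters passed. At an unadjusted p under 0.05 the share was 22.2%, without cluster 18.

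Counts pooled over dissociations, those with fewer than 5 coloured members included, are given by day without a test. In SoxC, green members numbered 0 of 6 on day 2, 2 of 15 on day 4 and 7 of 28 on day 7. In Elav, 26 of 33 coloured members were orange on day 2, 26 of 32 on day 4 and 16 of 38 on day 7, while red members numbered 5, 0 and 9. In FoxL2, 4 of 7, 8 of 17 and 17 of 19 were orange. In SoxC, 6 of 6, 8 of 15 and 13 of 28 were red. The red Elav members of day 7 came from the untreated dissociations 25 and 26, with 3 and 6, and dissociation 27 with DMSO had 0.

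**Figure D5:**
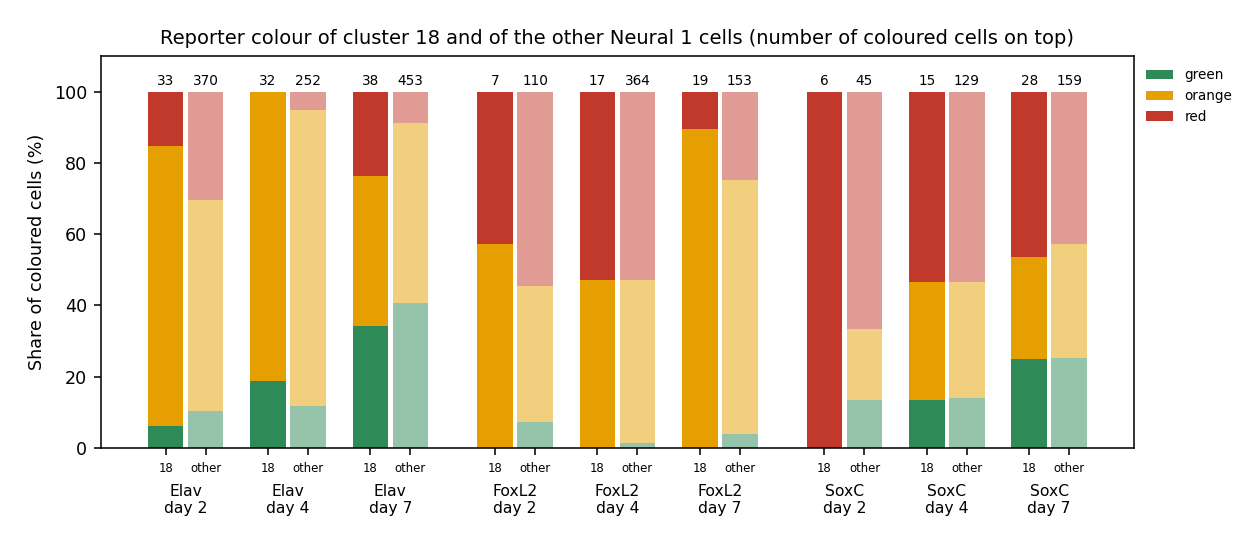
Green, orange and red cells as percentages of coloured cells, pooled over the dissociations of each driver and day, for cluster 18 (full colour) and the other Neural 1 cells (pale), with the number of coloured cells above each bar. Green grows with day in the Elav and SoxC bars of cluster 18 and is 0 in its 3 FoxL2 bars.

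Libraries held few members each. The median library had 3 and the largest 14, and 3 of 84 libraries had none. Of the 44 plates in the table, 40 had a library of odd wells and one of even wells, and their member counts differed by 1 at the median. The largest gap was 12, on a plate of Elav dissociation 24, with 14 members of 145 cells in the odd wells and 2 of 152 in the even wells. The next largest gap was 7. Without that odd-well library the Elav minus SoxC difference in the share of all cells was 2.01 points (exact permutation, adjusted p = 0.00370), and Elav minus FoxL2 was 1.49 (adjusted p = 0.0215). Per sorted well in place of per cell in the table, cluster 18 took 2.96% ± 1.01 (SD, n = 8) of the listed Elav wells. For FoxL2 it took 1.54% ± 0.764 (SD, n = 10), and for SoxC 1.20% ± 0.727 (SD, n = 9).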

How the data were processed

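Single cells were profiled by MARS-seq, and reads were processed with STARsolo of STAR 2.7.10b, per the submitters' processing notes. The authors' deposited table gives categories per cell (fine cluster, broad cluster, sorting gate, reporter colour class), and the deposited well lists give each well's library, barcode and content. Cell filters, clustering settings, doublet handling and the colour rule are not given in the sources used here. No value column was left unmapped (0).

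Cells were counted per dissociation with pandas 2.3.3, and shares are in percent. Shares within Neural 1 needed 20 Neural 1 cells and colour shares 5 coloured cells. Drivers were compared by exact permutation over dissociations. Day slopes were tested by 100000 permutations of day within driver with numpy 2.4.6, and the resampling alone sets a smallest p of 1e-05. Where few dissociations entered, the number of distinct arrangements of day sets a higher one. DMSO labels were permuted exactly within driver and day, and colours were paired within dissociations and tested by exact sign flips. P-values were adjusted by Benjamini-Hochberg over the fine clusters with a value (threshold 0.05), those of Neural 1 for results within it. For shares compared between drivers, the adjustment also ran over the 3 pairs. For colours compared between drivers, it ran within each pair alone. The 95% Wilson intervals and the limit of 3 counts for a count of 0 cover counting error only. Scripts were checked on simulated data with independent dissociations and no shared barcodes, so the check gives no error rate for these data. The alternatives were scale, weights, gate, medium, minimums, denominators, shared barcodes, pools and each dissociation left out. Fine clusters named beside cluster 18 are those of Neural 1 with at least as many cells and the 2 next smaller, and named dissociations are the highest and lowest of each driver, plus those chosen after their values were seen. The cluster and the comparisons were chosen with earlier results of these data known.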

Additional observations from a re-analysis of the deposited data

Results flagged for a closer look

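In Elav dissociation 24 (day 4, DMSO) cluster 18 was 14.1% of Neural 1 cells (27 of 191), far above the 5.38% to 8.50% of the other 7 Elav dissociations. It stood out by its gap to the nearest value relative to the range of the group. This was 1 of 26 groups of 4 to 10 dissociations examined, and chance flags about 1 in 20. Its odd-well library of 1 plate held 14 of the 27 members, and the even-well library of that plate held 2. Without that odd-well library the share was 10.0% (13 of 130 Neural 1 cells), still above the other 7.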

How the results depend on the processing

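Of 522 values recomputed under other settings, 462 kept their direction and their side of the threshold. The cause of the other changes was not tested. The 462 include settings that could not change a value, such as leaving out a dissociation that its contrast did not use. They also include gate differences, which have no p-value and counted as kept when within an SD of the main value. The count is therefore not a measure of robustness. For the share of all cells, Elav minus SoxC was 1.60 points with DMSO dissociations alone (adjusted p = 0.0536, exact permutation) and 1.60 with those of the KikGR+ gate alone. It was 0.965 in pool SB34 and 1.83 in pool SB40. Elav minus FoxL2 was 1.50 with DMSO alone, 1.51 with DMSO and the KikGR+ gate, 1.89 untreated, 2.20 without cells that share a barcode and fine cluster, 1.40 in odd-well libraries, 2.11 in SB34 and 1.82 in SB40, none past the threshold. The settings of 1 medium or 1 pool held fewer dissociations, which limits how small an exact p can be. FoxL2 minus SoxC passed at 1.05 with each barcode counted once and at 1.91 without sharing cells, and was -1.15 in SB34. Both barcode settings also changed the totals of all cells. The calls for Elav against SoxC and FoxL2 held without each dissociation in turn. The day slope of the share of all cells changed sign at -0.00430 on the logit scale and -0.0515 in odd-well libraries, and ran from -0.0371 to 0.0479 without 1 dissociation. DMSO minus untreated within Neural 1 was -1.22 with each barcode counted once, -3.69 without sharing cells and -0.397 in odd-well libraries. The gate difference within Neural 1 was 0.668 without sharing cells.

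The green slope lost its call at 3.31 points per day with at least 3 coloured members, 5.73 with at least 10, 4.10 with DMSO alone and 4.12 without sharing cells with at least 3. It held without each dissociation in turn. The green share of Elav against FoxL2 passed at 20.1 with at least 3 coloured members (adjusted p = 0.0236, exact permutation). The red slope was 1.99 with at least 10. The red difference from other Neural 1 cells was 0.320 with at least 3, 0.510 with DMSO alone, 3.99 without sharing cells, 2.38 without them with at least 3, and from -2.69 to 1.56 without 1 dissociation. With DMSO alone, Elav minus SoxC was -57.1 in red and 47.3 in orange, and the orange value ran from 34.1 to 46.6 without 1 dissociation. Colour slopes gave no value for untreated dissociations alone, nor without sharing cells at a minimum of 5, for want of dissociations. The settings on barcodes, odd and even wells, pools, single libraries and sorted wells, and the red and orange contrasts between drivers, were chosen after seeing the data. Small numbers of members limit the precision of every share.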
